A study of Microtus ochrogaster with 34 samples.

Results

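The genes described here were abundant in the testes of summer voles, were reduced at least 16-fold in regressed winter testes and stood at an intermediate level in the testes of winter males that kept their spermatogenesis. They were chosen on group means in RPKM, that is, reads per kilobase of exon relative to the library size, as deposited. The summer mean had to be at least 100 RPKM and at least 16 times the mean of the regressed testes, and the mean of the active winter testes had to lie from 0.3 to under 0.6 of the summer mean. These bounds selected 307 of the 23038 genes in the table. Differences in level between the groups therefore follow from the choice of the genes and are given as a description.

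The 34 libraries came from testes of wild male fossorial voles, Arvicola terrestris scherman (ATS), all labelled WT, with 1 library per animal. The 18 summer (S) males were captured in July and August. Winter captures, in January and February, were divided on testis and epididymis histology into 5 W+ males, which maintained spermatogenesis, and 11 W- males, which did not. The W- group joins testes with empty seminiferous tubules and testes of an intermediate appearance, and no label separates them. The males were of reproductive age by body weight and were brought to an animal facility on the day of capture, and no exact age is given. Reads were aligned to the genome of another vole, Microtus ochrogaster, which is also the species named in the labels.

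In a mammalian testis, spermatogonia divide at the base of the seminiferous tubule, spermatocytes go through meiosis, and the haploid spermatids that follow build the acrosome and the tail and pack their DNA. Late germ cells carry large amounts of a few messenger RNAs, many of which are stored before they are translated. In seasonal breeders the germ cells after the spermatogonia can be lost, in part or wholly, when the testis regresses, while Sertoli cells and spermatogonia remain. The identifiers of the table are not paired with gene symbols in the sources used here, so the roles of the 307 genes, the markers of testis cell types and the sequences of the genes were not analysed here. The tissue label was likewise not checked against marker genes. The identifiers named here had the highest and next highest summer means, and all other genes are given by their values.

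Per library, 5534633 to 63857259 counted reads stood behind the S values, 4960104 to 8576453 behind the W+ values and 2938627 to 9653984 behind the W- values. S replicates 12 to 15 were the deepest libraries. The RPKM are scaled by size factors, which set the typical gene equal between libraries. Under scaling by total reads instead, the median gene moved by 0.35 (log2) in W+ and by 0.70 in W- testes relative to S, so that all ratios to S given here are higher on that scale.

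Among the 307 genes, summer means ran from 100.1 to 16281 RPKM, with a median of 199.9 RPKM and quartiles of 143.7 and 336.8. In 152 of them the summer mean was at least 200 RPKM, in 42 at least 500 and in 15 at least 1000. The gene with the highest summer mean held 14.2% of the summed summer mean of all 307 genes, and the first 10 held 30.9%. Thus a few very abundant transcripts stood above a large set of moderately abundant ones.

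The reads on these genes took a share of each library that does not depend on the scaling between libraries. This share was 11.0% ± 0.623 (SD, n = 18) in S, 5.80% ± 1.62 (SD, n = 5) in W+ and 0.378% ± 0.158 (SD, n = 11) in W- testes. Single S libraries lay between 9.58 and 12.2%, and single W- libraries between 0.202 and 0.642%. The 5 W+ libraries had 3.31, 5.19, 7.56, 6.44 and 6.49% for W+ replicates 1 to 5. No group overlapped another. In whole testes, fewer cells of one type and less RNA in each of these cells cannot be told apart.

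**Figure D1:**
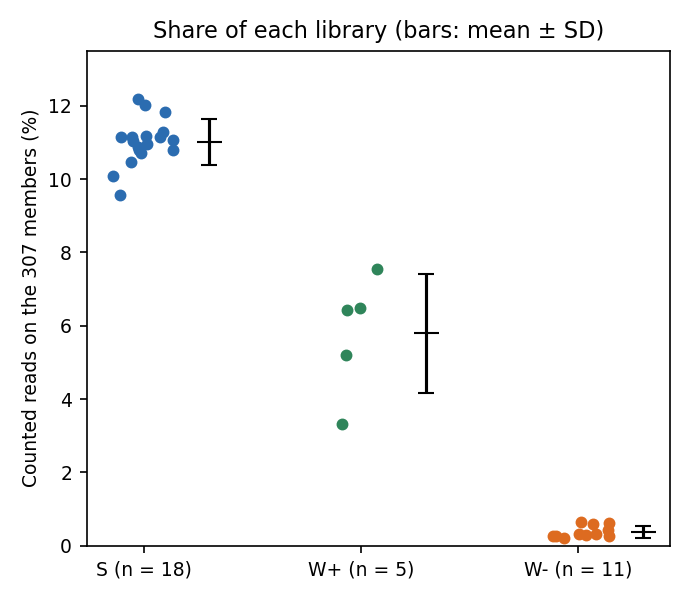
Share of counted reads (%) that fell on the 307 genes in each library of the S, W+ and W- groups (points are animals, bars the mean and SD). The S libraries lie between 9.58 and 12.2%, the W+ libraries between 3.31 and 7.56% and the W- libraries at 0.642% or less.

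ENSMOCG00000021303, with an exon length of 394 bases, had the highest summer mean. It reached 12985 RPKM in the lowest S male, 15548.5 RPKM in the median and 21702 RPKM in the highest. In W+ replicates 1 to 5 it had 1531, 5348, 9233, 5729 and 5281 RPKM. The W- males had between 0.221 and 306.7 RPKM, with a median of 6.25 RPKM. The 3 groups did not overlap, and W+ replicate 1 was the lowest and W+ replicate 3 the highest of the W+ males. The S mean was 16281 ± 2383 RPKM (SD, n = 18). The W+ mean was 5424 ± 2729 RPKM (SD, n = 5), and the W- mean 48.8 ± 94.0 RPKM (SD, n = 11). These W- values rested on 2505 reads over 11 libraries.

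ENSMOCG00000015118, 306 bases long, came next in abundance. It had 4592 RPKM in the lowest, 5833 RPKM in the median and 8296 RPKM in the highest S male. W+ replicates 1 to 5 had 720.6, 1719, 2481, 1858 and 2274 RPKM, again in the order in which replicate 1 was lowest and replicate 3 highest. The W- males had between 0 and 102.3 RPKM, with a median of 2.37 RPKM and 697 reads in all. For both genes the W- mean was carried by a few animals, since it was over 7 times the W- median.

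In the W- testes, the means of the 307 genes lay between 0.231 and 85.6 RPKM, with a median of 2.94 RPKM, or 1.15% of the summer mean (median over genes). The ratio of the summer mean to the W- mean ran from 16.3 to 443.8, with a median of 86.6 and quartiles of 30.5 and 158.4. For 166 genes it was at least 64, for 109 at least 128 and for 9 at least 256. In contrast, 84 genes lost less than 32-fold, and 49 kept a W- mean of 10 RPKM or more. Near absence in regressed testes thus held for many of these genes and a low residual level for the others.

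The values of every W- male lay below those of every S male for 306 of the 307 genes. Of the 19185 genes kept for testing (0.1 RPKM or more in at least 5 libraries), 23% did the same. All 307 genes passed this filter, which their summer level alone ensures, and their count reflects the choice of the genes. The exception was a gene of 80 bases with 429.5 ± 217.2 RPKM (SD, n = 18) in S testes. One S male had 5.85 RPKM of it, below the highest W- value of 42.6 RPKM, and the next S male had 68.5 RPKM.

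The W- males differed widely from each other in what remained. No gene was without reads in all 11 W- libraries, while 118 genes had 0 reads in at least 1 of them and 32 genes in at least 5. For 210 genes the highest W- value was at least 10 times the lowest, or the lowest was 0. For 43 genes, on the other hand, all W- values lay within a 4-fold range. Those 43 genes had a median W- mean of 7.10 RPKM and a median exon length of 2183 bases, against 1.12 RPKM and 906 bases for the 118 genes with a library at 0. A shorter gene collects fewer reads at the same RPKM, and the part of this in the zeros was not tested.

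W- replicates 1 to 4 carried most of the remaining signal. They had the 4 highest W- values for 200 of the 307 genes (65.1%), compared with 15.2% of the 14458 genes at 1 RPKM or more in S. The median of the genes relative to the summer mean was 3.27, 1.72, 1.95 and 2.52% in W- replicates 1 to 4, and between 0.306 and 0.815% in W- replicates 5 to 11. Over the genes, the median level was 5.30 RPKM in W- replicates 1 to 4 and 1.15 RPKM in the others. These 4 libraries also had the most reads of the W- group, 9004888 to 9653984 against 2938627 to 8019103. The median number of reads per gene was 51 to 100 in them and 3 to 16 in the others, and the part of depth in the difference was not tested. The map of levels by library shows this higher residual level in W- replicates 1 to 4.

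**Figure D2:**
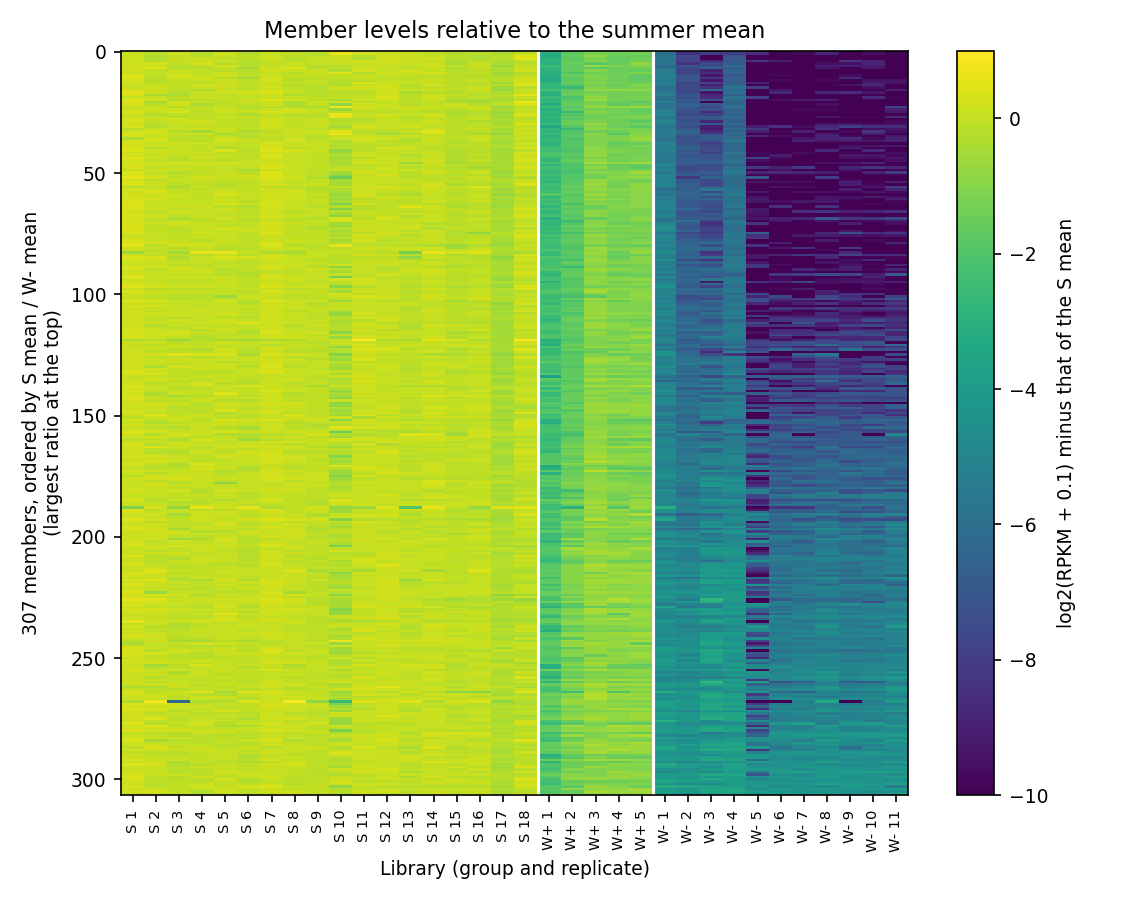
Level of each of the 307 genes (rows, ordered by the ratio of the S to the W- mean, largest at the top) in each library (columns), as log2(RPKM + 0.1) minus that of the gene's S mean. The S columns are nearly even apart from a patchy S replicate 10, the W+ columns lie below them with replicate 1 lowest, and W- replicates 5 to 11 reach the bottom of the scale for the upper rows, where W- replicates 1 to 4 keep a residual level.

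In the W+ testes, the mean level ran from 33.0 to 5424 RPKM, with a median of 85.4 RPKM. The ratio of the W+ to the S mean had a median of 0.411 and quartiles of 0.359 and 0.472 within the bounds of the choice. It lay between 0.3 and 0.4 for 142 genes, between 0.4 and 0.5 for 102 and between 0.5 and 0.6 for 63, so that more genes lay near the lower bound than near the upper one. Relative to the W- mean, the W+ mean was 5.97 to 143.3 times higher, with a median of 34.8, and more than 10 times higher for 277 genes.

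Every W+ value lay above every W- value for 306 of the 307 genes, against 19.8% of all genes tested. The exception, a gene of 1113 bases, had 76.9 RPKM in 1 W- male and 71.4 RPKM in the lowest W+ male. For 239 genes, all W+ males had less than any S male, against 5.23% of all genes tested. In the fit with limma over all genes, 194 of the 307 genes were called lower in W+ than in S (Benjamini-Hochberg adjusted p under 0.05 and a log2 fold change beyond 1), where 7.04% of all genes were called. The same contrasts chose the genes, so the direction was fixed by the choice and these counts are no test of it. Without W+ replicate 1, 86 of the genes were called, against 4.04% of all genes.

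**Figure D3:**
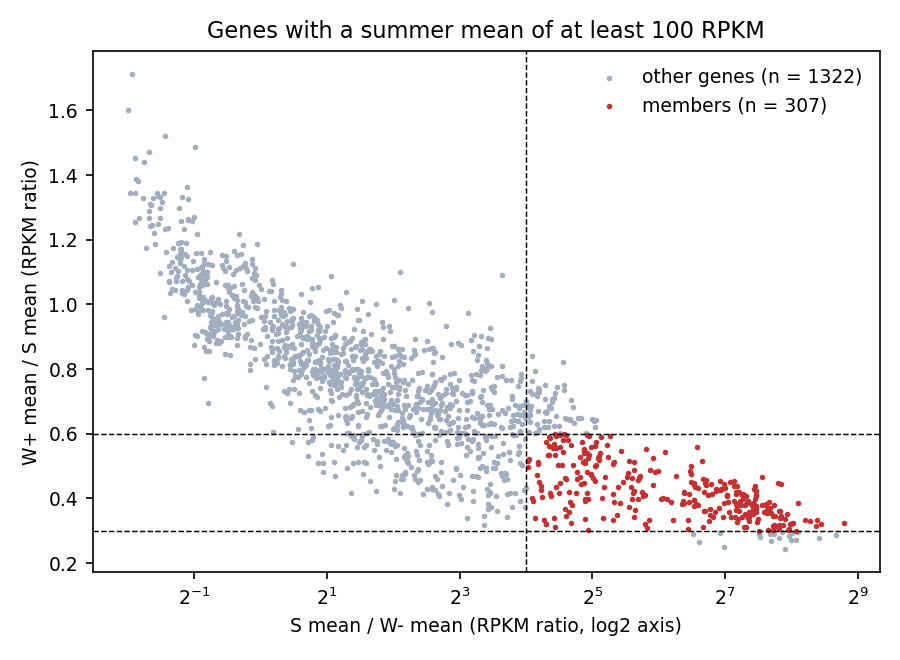
Ratio of the W+ to the S mean (vertical axis) against the ratio of the S to the W- mean (horizontal axis, log2) for the genes with a summer mean of at least 100 RPKM. Dashed lines mark the bounds of 16, 0.3 and 0.6, and the 307 selected genes (red) lie between the horizontal lines to the right of the vertical one, in a cloud that continues across each bound.

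The bounds cut through a continuous distribution. Just inside the lower bound of the W+ to S ratio were genes at 0.3004, 0.3007 and 0.3010, and just outside it genes at 0.297, 0.295 and 0.294. At the upper bound, the nearest genes inside stood at 0.5999, 0.5995 and 0.5976 and the nearest outside at 0.601, 0.603 and 0.604. At the bound on the loss in W- testes, the ratios were 16.3, 16.4 and 16.4 inside and 16.0, 15.9 and 15.8 outside. At the bound on abundance, the summer means were 100.1, 101.1 and 101.5 RPKM inside and 99.8, 98.9 and 98.3 RPKM outside. With the same abundance and loss in W- testes, 20 genes had a W+ to S ratio under 0.3 and 61 genes a ratio of 0.6 or more.

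When the 307 genes were ordered by their loss in W- testes and divided into 3 parts, the W+ levels differed along this order. Both ratios share the S libraries, and the values are given side by side. The 103 genes with the deepest loss (135.1-fold to 443.8-fold) had a median W+ to S ratio of 0.361, with quartiles of 0.331 and 0.388. The 102 genes in the middle had a median of 0.417, and the 102 with the shallowest loss (16.3-fold to 38.4-fold, median 25.5) a median of 0.503. The summer means hardly differed, with medians of 201.5, 193.8 and 212.4 RPKM. In W+ replicate 1 the medians were 16.5, 20.5 and 26.5% of the summer mean, and in W+ replicate 3 they were 51.7, 56.8 and 59.8%. Thus each of these animals showed the same order of the 3 parts, at its own level.

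The 5 W+ males differed strongly in the level of these genes. In W+ replicate 1 the genes had a median of 20.2% of their summer mean, with quartiles of 16.2 and 25.7%. In W+ replicate 2 the median was 32.0%. W+ replicates 3, 4 and 5 had medians of 55.9, 47.1 and 49.4%. No gene reached its summer mean in any W+ male, and the highest single value was 90.6% of it, in W+ replicate 3. Taken alone, W+ replicate 1 was under 0.3 of the summer mean for 274 of the genes, and W+ replicate 3 was at 0.6 or more for 100 of them. The group ratio that chose the genes therefore joins animals on both sides of its bounds.

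**Figure D4:**
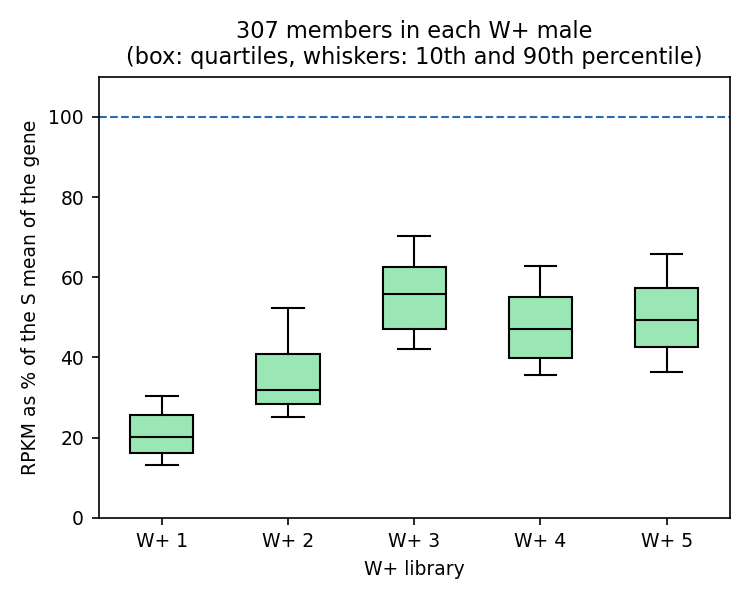
RPKM of the 307 genes in each W+ library as a percentage of the gene's S mean (box, quartiles with the median as a line, whiskers, 10th and 90th percentile). The dashed line marks the S mean, and the medians are 20.2, 32.0, 55.9, 47.1 and 49.4% for W+ replicates 1 to 5.

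W+ replicate 1 was the lowest W+ male for nearly all of these genes. Replicate 2 came next for most of them, while the order of replicates 3 to 5 varied. The lowest W+ value was that of replicate 1 for 297 of the 307 genes (96.7%). Replicate 3 was highest for 201 (65.5%), replicate 5 for 77 and replicate 4 for 27. W+ replicate 1 was lowest and W+ replicate 2 next to it for 248 genes, whereas 14% of the genes at 1 RPKM or more in S had this order. Among those genes, W+ replicate 1 was the lowest in 36.5%. W+ replicate 1 was also lowest for the 20 genes with a ratio under 0.3 and for 59 of the 61 genes with a ratio of 0.6 or more. In the latter, W+ replicate 3 was highest for 42.6% and W+ replicate 2 for 14.8%, against 0.651% of the 307 genes for replicate 2. When libraries were scaled to their total reads, the medians were 29.9, 40.0, 69.1, 57.7 and 59.4% for W+ replicates 1 to 5, in the same order. The counted reads of W+ replicate 1 amounted to 0.809 of the library size behind its RPKM, against 0.957 to 0.997 in the other W+ libraries, and the part of this in its low values was not tested.

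These differences between W+ males were mostly one shift common to the genes. The SD of a gene over the W+ males had a median of 0.63 on the log2(RPKM + 0.1) scale. After the median of each library over the 307 genes was subtracted, it was 0.22, and 83.6% of the summed squared deviations were removed. The SD was also 0.22 when the subtracted median came from the other genes of an alternating split. In S males, the same steps moved the SD from 0.21 to 0.16 and removed 29.1%, and in W- males from 1.36 to 0.93 and 53.6%. For all genes at 1 RPKM or more in S, subtracting their common median removed 0.742% in W+ males, as the size factors already hold that median nearly level. The genes beyond the bounds of the W+ to S ratio showed such a shift too, with 84.6% removed for the 20 genes with a ratio under 0.3 and 77.4% for the 61 genes with a ratio of 0.6 or more.

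The spread between animals was no part of the rule, though it depends on the levels that were, and it was compared over all genes. For each gene, the absolute deviation of log2(RPKM + 0.1) from the group mean was corrected for group size and compared between groups with limma. Among the 307 genes, the mean deviation had a median of 0.16 in S, 0.54 in W+ and 1.06 in W- males. Over all 19185 genes tested the medians were 0.26, 0.34 and 0.38. The 20 genes with a W+ to S ratio under 0.3 had medians of 0.20, 0.57 and 1.67, and the 61 genes with a ratio of 0.6 or more had 0.17, 0.36 and 0.79. A low spread in S and a high spread in W- was thus common to genes of this abundance and loss. The other 1241 genes of this abundance had an S mean under 16 times the W- mean, and some showed no loss. Their SD among S males was lower than that of the 307 genes (median 0.18 against 0.21 on the log2 scale).

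Between W- and S males, 262 of the 307 genes (85.3%) had a larger spread in W- (limma, Benjamini-Hochberg adjusted p under 0.05), where 21.5% of all genes tested were called. The same was called for 20 of the 20 genes with a ratio under 0.3 and for 44 of the 61 with a ratio of 0.6 or more. The genes were chosen for low W- levels, where few reads widen the spread on a log scale, so the count is a description and no test. The difference had a median of 0.88 over the 307 genes and of 0.08 over all genes. For ENSMOCG00000021303 the deviation was 2.66 in W- and 0.18 in S males, a difference of 2.49, and for ENSMOCG00000015118 it was 2.85 and 0.18. With a pseudocount of 1, which lowers the weight of small values, 241 of the genes were called, against 23.7% of all genes. The count stayed between 251 and 274 when any 1 library was left out.

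Between W+ and S males, the spread was larger in W+ for 306 of the 307 genes and for 12398 of the 19185 genes tested. It was larger for all 20 genes with a ratio under 0.3 and for 57 of the 61 at 0.6 or more. The median difference was 0.36 against 0.05 over all genes. A larger spread was called for 23 of the 307 genes (7.49%) against 1.78% of all genes tested. The genes were chosen on W+ and S means and mostly shared 1 shift between W+ libraries. The counts are therefore a description and no test. The median difference was also 0.36 for the 20 genes with a ratio under 0.3, and 0.17 for the 61 with a ratio of 0.6 or more. The differences of the called genes lay between 0.37 and 0.75. The largest belonged to a gene with a deviation of 0.84 in W+ and 0.09 in S males (standard error of the difference 0.16, adjusted p = 0.0057 from limma). For ENSMOCG00000021303 the difference of 0.55 was not called (standard error 0.60, adjusted p = 0.738 from limma). The shared spread of each gene in this fit includes the W- males, in which these genes varied most. With S and W+ libraries alone, a fit added after seeing the data, 156 of the genes were called and 4.54% of all genes.

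The calls of a larger spread in W+ depended on W+ replicate 1. Without that library, limma called 0 of the 307 genes and 0.788% of all genes tested, and 4 of the 307 passed an unadjusted p under 0.05, against 6.58% of all genes. The median difference was then 0.11. With S and W+ libraries alone and without W+ replicate 1, 7 genes were called, and 1.25% of all genes. The median SD of the genes over the remaining W+ males was 0.34 on the log2 scale against 0.21 over the S males. The SD was larger than in S for 253 genes, and the share of all genes was not counted for these males. With all W+ libraries, the SD was larger than in S for 305 of the 307 genes and for 9441 of the 14458 genes at 1 RPKM or more in S. Without W+ replicate 2 or 4, in contrast, 36 and 41 genes were called. The share called over all genes also rose, to 2.85 and 3.97% against 1.78% with all libraries.

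**Figure D5:**
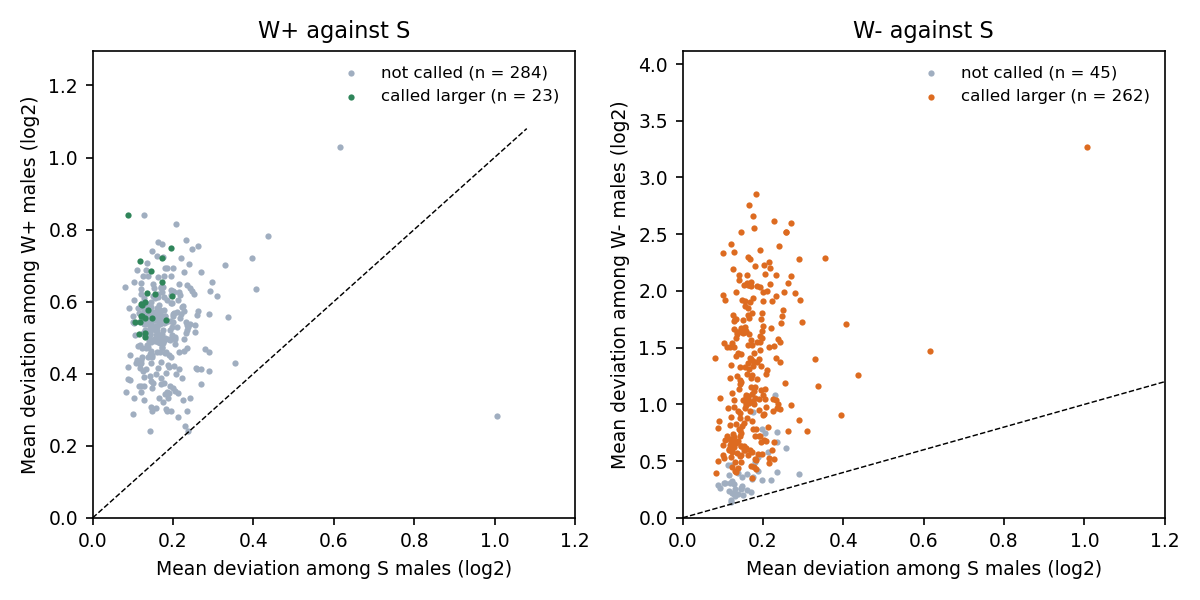
Mean absolute deviation from the group mean on the log2 scale, corrected for group size, of each of the 307 genes among W+ males (left) and W- males (right) against that among S males. The dashed line marks equal spread, and coloured points are the 23 genes (left) and 262 genes (right) with a larger spread called by limma.

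Among the S males, the median level of the genes lay between 76.7 and 116.5% of their summer mean. S replicate 17 had the lowest S value for 139 genes (45.3%) and S replicate 10 for 101 (32.9%), and S replicate 1 had the highest for 95 (30.9%). Among all genes at 1 RPKM or more in S, these shares were 7.26, 19.2 and 7.68%, in that order. S replicate 10 was the S library with the fewest reads. The SD of a gene over the 18 S males had a median of 0.21 (log2) and quartiles of 0.17 and 0.26. The lowest S library thus stood at 76.7% where the highest W+ library stood at 55.9%, and the medians of the groups did not overlap.

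The exon length of each gene was recovered from the RPKM and the whole reads behind them, and the rule did not use it. The 307 genes had a median length of 1137 bases with quartiles of 759 and 1902, and 73.9% of them were shorter than the median of 1823 bases of all genes at 1 RPKM or more in S. Other abundant genes were also short. The 1241 genes with a summer mean of at least 100 RPKM but under 16 times the W- mean had a median of 1303 bases. Some of these genes showed no loss in W- testes. Genes with the same abundance and loss had median lengths of 751 bases for a W+ to S ratio under 0.3 and 1380 bases for a ratio of 0.6 or more. By loss in W- testes, the 3 parts of the 307 genes had medians of 966, 1152 and 1319 bases from the deepest to the shallowest loss. Under 500 bases were 11.4% of the 307 genes and 10.3% of all genes at 1 RPKM or more in S.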

How the data were processed

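Testis RNA of 34 males was sequenced as single-end poly(A) libraries. Per the labels and the methods, the authors trimmed reads with Trim Galore 0.6.10, checked them with FastQC 0.12.1, aligned them with HISAT2 to MicOch1, counted reads per gene with HTSeq and deposited RPKM computed during DESeq2 normalization. The sources used here give no annotation release or strand setting. Whole reads and exon lengths were recovered from the RPKM for 20821 genes above 0 (tolerance 0.02 of a read), and library sizes matched the median-of-ratios size factors. The recovered reads served only for depth, lengths, shares and scaling by totals. Libraries of a group were compared, and none repeated another within counting noise.

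Tests ran under R 4.3.3 with limma 3.58.1. They took log2(RPKM + 0.1) of 19185 genes, with all 34 libraries in one fit. They were also run on simulated data in which W- values had the S mean and S spread. That simulation does not cover the wide W- spread of the selected genes. All p-values set a difference between group means, of level or of deviation, against the variation between animals pooled over the groups in the fit. Other summaries used Python 3.11.15. The genes and lists were chosen with earlier results of these data known. The rule for named genes asked for symbols, which no source used here gives, so the named genes are the first by summer mean, and the gene and marker lists could not be applied. Alternatives covered pseudocounts of 0.5 and 1, no filter, scaling by totals, quantile normalization, group medians, a replicate block, no fold change threshold, each library left out, and S without its 4 deepest libraries.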

Additional observations from a re-analysis of the deposited data

Results flagged for a closer look

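For the W+ group, 6 measures were screened for 1 library set apart from the rest, and chance singles out about 1 in 20 such groups. The measure that stood out was the ratio of counted reads to the library size used in the RPKM, at 0.809 in W+ replicate 1 and 0.957 to 0.997 in W+ replicates 2 to 5. The distance from replicate 1 to its neighbour made up 0.785 of the whole range, above the critical value of 0.71 for 5 libraries. The share of reads on the 307 genes (gap 0.443), their summed RPKM (0.475), their median log2 level (0.452) and the values of ENSMOCG00000021303 (0.487) and ENSMOCG00000015118 (0.567) stayed under that value. Of the 307 genes taken singly, 15 (4.89%) had a library singled out, in each case W+ replicate 1 as the lowest value. These genes mostly shared 1 shift between W+ libraries, so they are not separate trials to set against 1 in 20. The share over all genes was not counted.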

How the results depend on the processing

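Scaling by the total of counted reads left 188 genes within the bounds, of which 170 were among the 307. Of the 307, 72 then had a W+ to S ratio of 0.6 or more, 49 a summer mean under 100 RPKM and 54 a loss under 16-fold, and the median ratio was 0.514, with all W+ means still below the S means. On this scale, 169 of the 307 genes had less in all W+ males than in any S male. The choice of the genes favours this order and the share of all genes was not counted on this scale, so nothing is read from it. Leaving out 1 library gave 278 to 314 genes and a median ratio of 0.375 to 0.460. Calls lower in W+ than in S had a direction fixed by the choice of the genes, and brackets give the share of all genes. They numbered 85 (3.08%) with scaling by totals, 81 (4.95%) with quantile normalization, 86 (4.04%) without W+ replicate 1 and 219 (7.28%) without W- replicate 1. The values 86 and 219 were the lowest and highest with 1 library left out. The larger spread in W+ was called for 51 genes (2.47%) with a pseudocount of 1. With 1 library left out, 0 (0.788%, without W+ replicate 1) to 41 (3.97%, without W+ replicate 4) were called. With S and W+ libraries alone, 156 (4.54%) were called, and 7 (1.25%) if W+ replicate 1 was left out as well. The larger spread in W- kept a count of 206 to 274 under its 40 alternatives. With the replicate block in limma, 0 of the 307 genes and 0.229% of all genes had a larger spread in W+. At an unadjusted p under 0.05 these were 33 genes and 5.16% of all genes. In the same fit, 236 (8.55%) were called lower in W+ and 206 (10.4%) had a larger spread in W-. Same-numbered animals of different groups share only a number: over 21 pairs, the correlation of their deviations had a median of 0.006 and exceeded 0.1 in 1 pair. The causes of these changes were not tested. Depth limits the W- values, where 3 to 100 reads stood behind the median gene of a library.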

Other observations

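Among the 307 genes, 5 had an exon length under 200 bases, of 68, 80, 108, 162 and 198 bases. In W+ testes they stood at 0.383, 0.503, 0.331, 0.369 and 0.595 of the summer mean, in that order, and their S means ran from 207.4 to 429.5 RPKM. The gene of 80 bases had an SD of 217.2 RPKM among S and 47.2 RPKM among W+ males. No pair of the 307 genes had identical reads in every library.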
